A study of Rattus norvegicus with 196 samples.

Results

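Gabrb2 encodes the beta-2 subunit of the GABA-A receptor. Its transcript, ENSRNOT00000004970, is 1 of 29188 transcripts in the count files and was found by the name that the study's list of differential transcripts gives to that identifier. That list names 1845 transcripts, and a transcript is on it because the study called it in these same samples, so the response of Gabrb2 to fluoxetine is not independent of how it came to have a name here. The data are bulk RNA-seq of 25 brain regions of male Long-Evans rats aged 2 months at the start. For 6 weeks the FT group received fluoxetine, a selective serotonin reuptake inhibitor, in the drinking water (18 mg/kg daily). The Sham group had plain water. Each sample is 1 pool of punches from 10 animals, the animals of a replicate number supply all regions, and samples carry the replicate numbers 1, 3, 4 and 5. There are 98 FT and 98 Sham samples: the arcuate nucleus (Arc) has Sham samples of replicates 4 and 5 only, and the medial preoptic area (mPoA) has FT samples of replicates 4 and 5 only. The animals were naive rats rather than a model of disease, and a bulk punch mixes cell types.

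GABA-A receptors are pentameric chloride channels that open when GABA, the main inhibitory transmitter of the adult brain, binds. A typical receptor holds alpha, beta and gamma subunits, and GABA binds where a beta subunit meets an alpha subunit. Beta-2 is among the most widely used beta subunits and is typically found together with alpha-1 and a gamma subunit at inhibitory synapses. Delta-containing receptors lie mostly outside synapses and carry tonic inhibition. In the RefSeq gene table of the rat assembly GRCr8, Gabra6 is the neighbouring protein-coding gene of Gabrb2. Coordinates are not given because the counts were made on the build rn5.

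The libraries held between 4586 and 50893913 counts on transcripts, with a median of 11921178, and Gabrb2 received between 0 and 695 reads with a median of 52. Read depth for Gabrb2 was lowest in replicate 3, where the median was 13 reads against 38.5, 118 and 104.5 in replicates 1, 4 and 5, and where 50 transcripts took a median of 68.2% of the counts. Fewer than 10 Gabrb2 reads were found in 22 libraries, 16 of them of replicate 3. The only libraries with 0 reads were the Sham libraries of replicate 3 in the infralimbic cortex (ILC) and in the nucleus of the solitary tract (Nts). Both held under 1000000 counts (543403 and 4586), so 0 reads there allow up to 5.52 and 654 CPM (reads per 1000000 counts on transcripts, here 3 reads, for counting error only). The study removed 2 outlying replicates of the cingulate cortex (CGC) without naming them in its text. The pair of replicate 1 was left out of the fits here, read from a plot of the samples, and it is not certain that these were the samples removed. Levels below are TMM-normalised CPM within a region unless stated otherwise.

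Gabrb2 was lower in FT than in Sham in every region by the fitted log2 fold-change (log2FC). The log2FC ran from -2.06 in the nucleus accumbens core (NAcC) to -0.24 in Nts, with a median of -1.41 over 25 regions, which is 2.67-fold lower. Of 11365 transcripts tested in every region, 329 (2.89%) were also negative in every region, and only 22 (0.194%, Gabrb2 included) had a median log2FC as low. Within replicate pairs, 85 of 95 were lower in FT and 10 were higher, and every pair was lower in 19 regions. The regions come from the same pools of animals, so these counts are not 25 or 95 independent observations. In bulk tissue, fewer cells that express Gabrb2 and less Gabrb2 RNA per cell cannot be told apart.

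**Figure D1:**
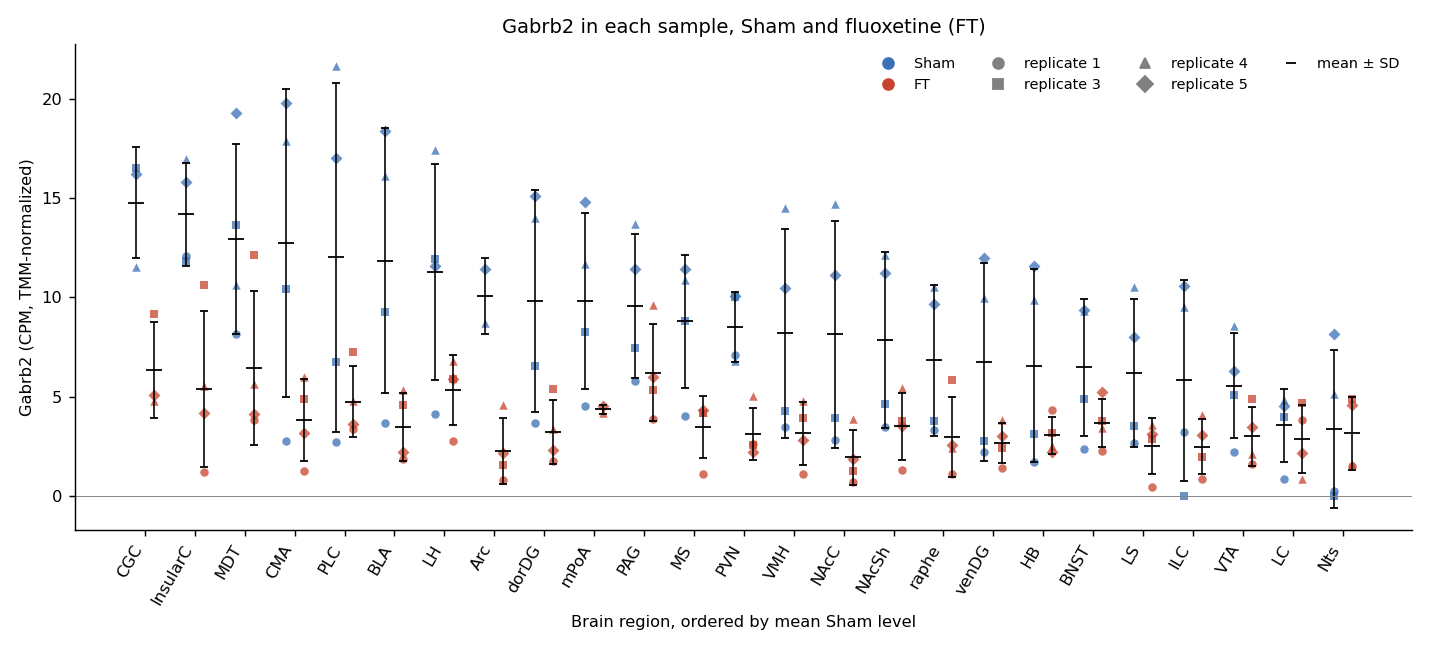
Gabrb2 in CPM (y axis) in each sample of 25 brain regions, ordered by mean Sham level, with Sham in blue, FT in red, a symbol for each replicate number and black bars for the mean ± SD. The Sham samples of replicates 4 and 5 (triangles and diamonds) form the top of most regions and the FT samples lie mostly under 6 CPM.

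The calls used edgeR's quasi-likelihood test with the replicate number as a block. A call needed a log2FC of at least 0.32 in size and, after Benjamini-Hochberg adjustment over all transcripts of its region, a p of at most 0.1. Gabrb2 was called lower in 3 of 25 regions, NAcC, mPoA and Arc. In mPoA and Arc only replicates 4 and 5 form complete pairs, and in these replicates Gabrb2 was lower in 25 of 25 regions. The calls in mPoA and Arc thus hold no pair of replicates 1 and 3, where the shift was smaller. The share of all transcripts called lower was 0.152% in NAcC, 4.74% in mPoA and 10.8% in Arc, so the call in NAcC stood against a sparse background and that in Arc against a dense one. The unadjusted p was under 0.05 in 21 regions, while in 10 regions edgeR called 0 transcripts in either direction (1042 to 2080 transcripts at an unadjusted p under 0.05, and 55 to 608 called by DESeq2). Without the replicate block, edgeR called Gabrb2 in 0 regions, with an unadjusted p under 0.05 in 12 and a median log2FC of -1.34. The share of all transcripts called without the block is not given for these region fits. With the block, 233 (2.05%) of 11365 transcripts tested in every region were called lower in at least 3.

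DESeq2 with the same block gave an adjusted p for Gabrb2 in 18 regions and called it lower in 11 of them, NAcC, the basolateral amygdala (BLA), the dorsal dentate gyrus (dorDG), the insular cortex (InsularC), the lateral hypothalamus (LH), mPoA, the accumbens shell (NAcSh), the paraventricular nucleus (PVN; thalamic by the study's region list), the raphe, the ventromedial hypothalamus (VMH) and CGC. The share of all transcripts that DESeq2 called lower was 3.5%, 1.14%, 1.52%, 0.384%, 2.11%, 1.89%, 3.69%, 1.76%, 4.82%, 1.49% and 0.453% in these regions, in that order. In Arc, CMA, LS, MS, Nts, VTA and venDG, DESeq2 gave no adjusted p for Gabrb2. The median log2FC by DESeq2 was -1.35 over 25 regions, ranging from -2.08 to -0.31.

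**Figure D2:**
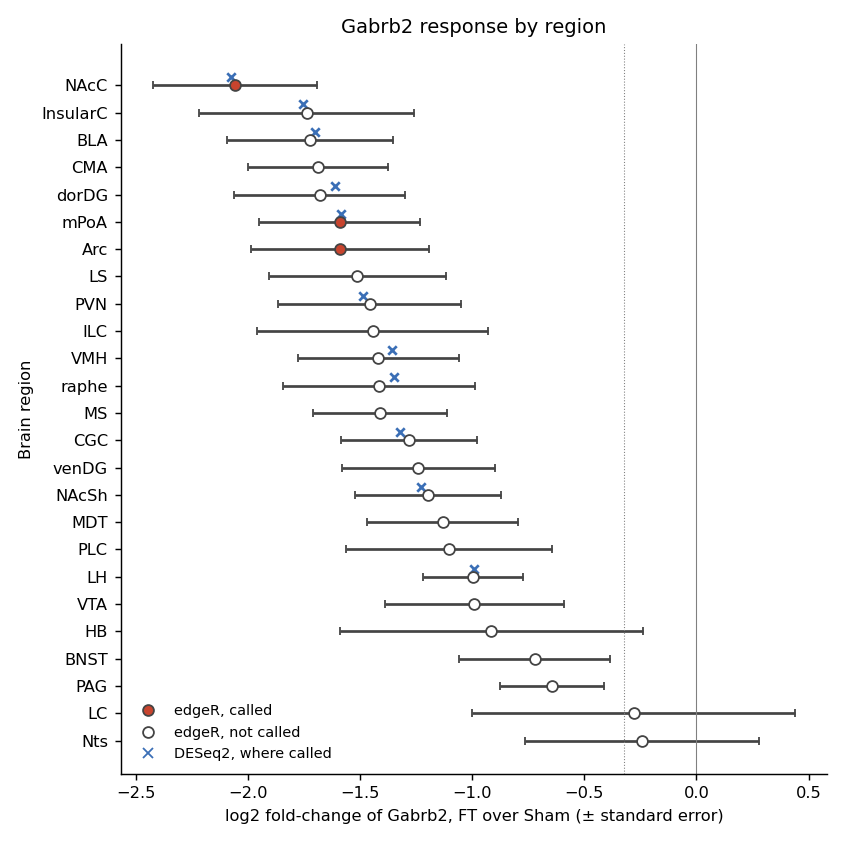
Fitted log2FC of Gabrb2, FT over Sham, by region (edgeR, ± standard error), filled where called, with a cross at the DESeq2 estimate where DESeq2 called it and a dotted line 0.32 below 0, the smallest size that could be called. All 25 points lie left of 0, from -2.06 in NAcC to -0.24 in Nts.

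NAcC, a ventral striatal region built mainly of GABA neurons, had the lowest log2FC. Its Sham samples had 2.83, 3.94, 14.7 and 11.1 CPM in replicates 1, 3, 4 and 5. The FT samples of the same replicates had 0.743, 1.28, 3.89 and 1.90 CPM. Every pair was lower in FT, with log2 ratios of -1.74, -1.52, -1.88 and -2.46, although the groups overlapped because replicates 1 and 3 were low in both. The adjusted p in NAcC was 0.0761 by edgeR and 0.000199 by DESeq2, and the edgeR value was 0.0407 without replicate 1 and 0.156, 0.45 and 0.105 without replicate 3, 4 or 5. The log2FC moved little in these 4 fits, from -2.17 to -1.92. In the neighbouring NAcSh the means were 7.87 ± 4.44 CPM in Sham and 3.53 ± 1.69 in FT (SD, n = 4 each). Its log2FC was -1.20 (standard error 0.33), with an edgeR adjusted p of 0.13.

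In mPoA, a hypothalamic area with roles in reproductive and parental behaviour, the Sham samples had 4.55, 8.25, 11.7 and 14.8 CPM and the FT samples of replicates 4 and 5 had 4.19 and 4.54 CPM. The groups did not overlap, but the lowest Sham sample and the highest FT sample were nearly equal. The log2FC was -1.59 (standard error 0.36, edgeR adjusted p = 0.00174). It rests on 2 complete pairs, since a sample without a partner carries no information on the treatment once the replicate number is a block. In Arc, the FT samples had 0.801, 1.56, 4.62 and 2.16 CPM and the Sham samples of replicates 4 and 5 had 8.73 and 11.4 CPM. The groups did not overlap there either, and the 2 complete pairs had log2 ratios of -0.90 and -2.32. The fitted log2FC in Arc was -1.59 (standard error 0.40, edgeR adjusted p = 0.0507), and neither Arc nor mPoA can be fitted with the block when replicate 4 or 5 is left out.

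Markers of the main cell classes were set beside these calls. Of 49 marker genes, 19 had a named transcript, among them 3 of 12 for neurons, 5 of 7 for GABA neurons and 4 of 10 for oligodendrocytes, and none of the 4 endothelial genes. A marker has a name only if the study called its transcript in these samples, so markers that it did not call are missing. The shifts and calls of these markers are not independent of that choice. In Arc, 13.7% of all transcripts were called higher and 10.8% lower. The neuronal markers Tubb3 and Nefh and the GABA neuron markers Pvalb and Sst were detected in all 196 libraries. In Arc, the summed level of the neuronal markers was between 357 and 845 CPM in FT and between 530 and 702 CPM in Sham, with a mean paired log2 ratio of -0.75. The sum of the GABA neuron markers went the other way there, with a ratio of 0.30, higher in both pairs. Of its 5 members, 3 were called higher and 1, Gad2, was called lower. The oligodendrocyte markers in Arc were split: their sum had a ratio of -0.56, lower in both pairs, with 1 of 4 called lower and 2 called higher. Sox10, a transcription factor of the lineage, had 24.8 to 31.8 CPM in FT and 14.5 to 15.6 CPM in Sham, while the myelin gene Ermn had 74.6 to 104 and 165 to 183 CPM. Ttr, the choroid plexus marker, was called higher in Arc, with 45.0 to 67.8 CPM in FT and 6.07 to 27.1 CPM in Sham. In mPoA the neuronal markers (281 to 321 CPM in FT, 318 to 1175 CPM in Sham) had a mean paired log2 ratio of -0.42 and the GABA neuron markers one of -0.48. In NAcC the summed neuronal markers had a mean paired log2 ratio of 0.02 and the summed GABA neuron markers 0.37, lower in 2 and 0 of 4 pairs. Taken singly, 3 of the 5 GABA neuron markers had a negative fitted log2FC in NAcC. The ratio of Ttr there was 1.91. Over the 25 regions the median log2 ratio of the sum was -0.22 for neuronal markers (lower in 17 regions) and -0.17 for oligodendrocyte markers (lower in 18). For the sum of GABA neuron markers it was 0.30 (lower in 4). Abundant members weigh most in a sum, and the GABA neuron markers differed among themselves. Gad2 was negative in 24 of 25 regions, with a median log2FC of -0.45. Ttr moved most, with a median of -0.90 (lower in 17 regions) and a range from -3.92 to 3.59. The part of these markers in the Gabrb2 result was not tested.

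The groups also did not overlap in InsularC, PVN and, among the 3 pairs fitted, CGC. The share of all transcripts without overlap was not computed in these regions or in mPoA and Arc. The separation is thus not shown to be particular to Gabrb2. InsularC had 12.1, 11.8, 17.0 and 15.8 CPM in Sham and 1.21, 10.6, 5.54 and 4.20 CPM in FT, so its FT samples varied far more than its Sham samples. The InsularC log2FC was -1.74 (standard error 0.48, edgeR adjusted p = 0.654). CGC had 16.5, 11.5 and 16.2 CPM in Sham and 9.15, 4.78 and 5.12 CPM in FT (replicates 3, 4 and 5), with a log2FC of -1.28 and an edgeR adjusted p of 0.122. With all 8 samples scaled together the CGC groups overlapped (7.98 CPM in the lowest Sham and 8.10 CPM in the highest FT sample), the log2FC was -1.24 and the adjusted p was 0.529. In the prelimbic cortex (PLC) the Sham samples of replicates 4 and 5 had 21.6 and 17.0 CPM, and the FT samples of the same replicates had 4.80 and 3.62 CPM. Replicates 1 and 3 went slightly the other way, with 2.74 and 6.74 CPM in Sham and 3.37 and 7.25 CPM in FT. ILC had 3.23, 0, 9.51 and 10.6 CPM in Sham and 0.894, 1.97, 4.08 and 3.06 CPM in FT. The log2FC was -1.10 in PLC (standard error 0.46) and -1.45 in ILC (standard error 0.52), and neither was called by edgeR or DESeq2.

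PVN is listed by the study as a thalamic nucleus, although the abbreviation is also usual for a hypothalamic one. It had 7.12, 10.0, 6.82 and 10.1 CPM in Sham against 2.65, 2.59, 5.06 and 2.24 CPM in FT, with every pair lower and a log2FC of -1.46 (standard error 0.41). In LH, a feeding and arousal centre, the means were 11.3 ± 5.44 CPM in Sham and 5.34 ± 1.77 CPM in FT. The LH log2FC was -0.997 with the smallest standard error of any region, 0.22. VMH had 8.19 ± 5.25 CPM in Sham and 3.16 ± 1.57 CPM in FT, and a log2FC of -1.42. These 3 regions were called by DESeq2 and not by edgeR, where the adjusted p was 0.194, 0.121 and 0.291.

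Both amygdala samples had 4 of 4 pairs lower. BLA, which evaluates threat and reward, went from 11.9 ± 6.68 CPM in Sham to 3.50 ± 1.71 in FT (log2FC -1.73, standard error 0.37), and the centromedial amygdala (CMA) from 12.7 ± 7.75 to 3.83 ± 2.05 (log2FC -1.69, standard error 0.31). In BLA, where edgeR called 0 transcripts and 1787 had an unadjusted p under 0.05, the edgeR p of Gabrb2 was 0.00127 before adjustment. In the hippocampal dentate gyrus, the means were 9.83 ± 5.59 CPM in Sham and 3.21 ± 1.60 CPM in FT dorsally and 6.74 ± 4.97 and 2.68 ± 1.03 CPM ventrally (venDG). The log2FC was -1.68 in dorDG and -1.24 in venDG, with standard errors of 0.38 and 0.34. In the lateral septum (LS) the means were 6.20 ± 3.73 CPM in Sham and 2.51 ± 1.40 CPM in FT, and in the medial septum (MS) 8.79 ± 3.36 and 3.47 ± 1.55 CPM. The log2FC was -1.51 in LS and -1.41 in MS, with standard errors of 0.40 and 0.30. The bed nucleus of the stria terminalis (BNST) had a log2FC of -0.72 (standard error 0.34), with 6.49 ± 3.45 CPM in Sham and 3.69 ± 1.22 CPM in FT.

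Gabrb2 was not called by edgeR in the midbrain or the raphe. The periaqueductal grey (PAG) had 9.59 ± 3.62 CPM in Sham and 6.21 ± 2.44 CPM in FT (log2FC -0.65, standard error 0.23), with all 4 pairs lower by similar amounts, from -0.47 to -0.91. The ventral tegmental area (VTA), a dopamine centre, had 5.56 ± 2.64 and 3.02 ± 1.48 CPM and a log2FC of -0.99 (standard error 0.40). The serotonergic raphe had 3.35, 3.78, 10.5 and 9.69 CPM in Sham and 1.12, 5.83, 2.43 and 2.58 CPM in FT. Replicate 3 was higher in FT there and the other 3 were lower, and the log2FC was -1.42 (standard error 0.43). Its adjusted p of 0.108 by edgeR lay just above the threshold, and 0.0578 by DESeq2 below it. The mediodorsal thalamus (MDT) had 12.9 ± 4.77 CPM in Sham and 6.45 ± 3.88 CPM in FT, with a log2FC of -1.13.

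The noradrenergic locus coeruleus (LC), Nts and the habenula (HB) held most of the pairs that were higher in FT. In LC the Sham samples had 0.860, 3.99, 4.86 and 4.57 CPM and the FT samples 3.82, 4.71, 0.885 and 2.18 CPM. Replicates 1 and 3 were higher in FT there, with log2 ratios of 1.95 and 0.23, and replicates 4 and 5 were lower, with -2.25 and -1.01. Nts split the same way, from 0.254, 0, 5.13 and 8.15 CPM in Sham to 1.53, 4.92, 1.62 and 4.59 CPM in FT, and its Sham sample of replicate 3 is the library of 4586 counts. HB had 1.72, 3.15, 9.86 and 11.6 CPM in Sham and 4.33, 3.17, 2.52 and 2.23 CPM in FT, with log2 ratios of 1.26, 0.01, -1.91 and -2.31. The fitted log2FC was -0.28 in LC (standard error 0.72) and -0.92 in HB (standard error 0.68), the largest errors of the 25 regions. In both LC and Nts the log2FC turned positive without replicate 4 or without replicate 5, to between 0.09 and 0.51, and the Nts value was -1.10 without replicate 1, when edgeR called it lower. In that fit 19.7% of all Nts transcripts were called lower, and the Sham library of 4586 counts was still in it.

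Whether the response differed between regions was tested in 1 fit of all complete pairs, with a block for each pair. The F value for Gabrb2 was 0.823 (24 degrees of freedom, edgeR adjusted p = 1), against 8 of 17287 transcripts called (0.0463%). The order of the regions in the plot of fitted log2FC is thus not resolved at this spread. With a shared treatment effect for each replicate number added to the fit, the F value was 1.28 (edgeR adjusted p = 0.478), while 5.66% of transcripts were called.

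By replicate number, FT was lower than Sham in 25 of 25 regions in replicate 4 and in 25 of 25 in replicate 5, but in 18 of 22 in replicate 1 and in 17 of 23 in replicate 3. The median log2 ratio over regions was -1.04, -0.27, -1.52 and -1.83 in replicates 1, 3, 4 and 5. Over the 22 regions with all 4 pairs, the mean log2 ratio of the pools was -0.78, -0.01, -1.51 and -1.74. Their mean was -1.01 ± 0.78 (SD, n = 4 pools), with all 4 pools negative. In the exact two-sided sign permutation test 2 of 16 sign patterns were as far from 0, the fewest that 4 pools allow, so the test cannot pass 0.05. The 2 largest positive ratios, 4.60 in Nts and 4.03 in ILC, belong to replicate 3 and divide by a Sham library with 0 Gabrb2 reads, so their size is set by the prior count. Without libraries under 1000000 counts the mean over the pools was -1.12.

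**Figure D3:**
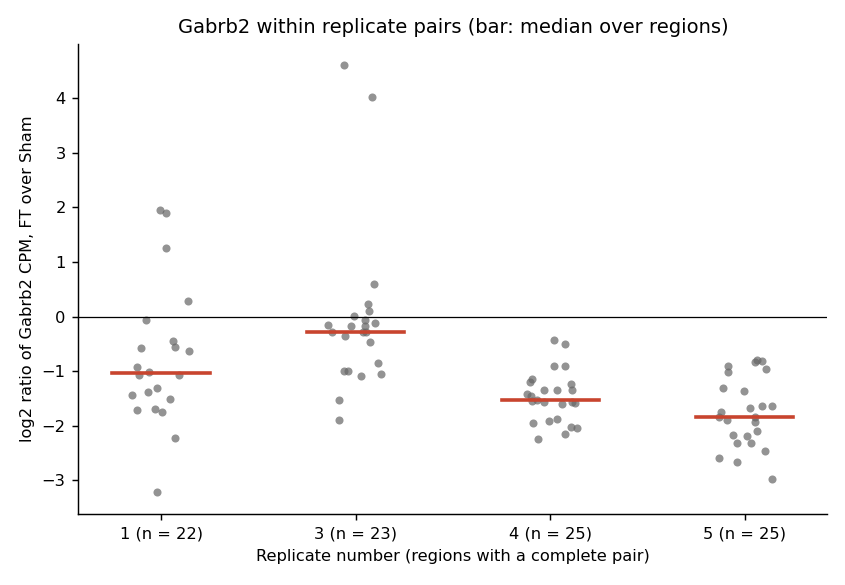
Log2 ratio of Gabrb2 CPM, FT over Sham (y axis), for each replicate pair, grouped by replicate number, with 1 point a region and a red bar at the median over regions. Every point of replicates 4 and 5 lies below 0, while replicates 1 and 3 hold all 10 points above it.

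The levels themselves also moved with the replicate number, in Sham and in FT. The median Sham level over regions was 3.35, 5.83, 10.9 and 11.4 CPM in replicates 1, 3, 4 and 5, while the median FT level was 1.53, 4.64, 4.22 and 3.20 CPM. The share of reads outside any annotated transcript had medians of 23.7%, 38.2%, 46.0% and 45.0% in those replicates. Within pairs, that share was lower in FT in replicate 1 (median difference -3.77 percentage points) and in replicate 5 (-2.14), and higher in replicate 4 (4.97). Across 93 pairs without libraries under 1000000 counts, the Gabrb2 ratio had a Pearson r of -0.04 with that difference, 0.02 with the difference in the share of the top 50 transcripts and 0.28 with the log2 ratio of depth. Over all 95 pairs the r with depth was 0.63. Within replicate numbers (21 to 25 pairs each, without the small libraries) the r with the no-feature difference ran from -0.27 in replicate 3 to 0.43 in replicate 1, that with the top 50 share from -0.60 in replicate 5 to 0.21 in replicate 3, and that with depth from -0.29 in replicate 3 to 0.47 in replicate 4. These pairs share pools and libraries, and the part of these values in the Gabrb2 result was not tested.

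The level of Gabrb2 also differed between regions in the Sham animals. In a fit of all Sham samples with the replicate block, the F value over 25 regions was 5.59 (edgeR adjusted p = 1.2e-08). Most transcripts did so too, 76.7% of those tested. In the FT samples the F value was 2.60 (edgeR adjusted p = 0.00135), with 84.8% of transcripts called. Without the replicate block the Sham value was 1.29 (edgeR adjusted p = 0.455), with 33.2% called. Against the mean of the other regions, Gabrb2 in Sham was called higher in InsularC (log2 difference 1.14, standard error 0.21), MDT (0.95), CGC (0.72), LH (0.57) and PLC (0.51). It was called lower in LC (-1.29, standard error 0.28) and in Nts (-1.50, standard error 0.31). The share of all transcripts called against the other regions was 27%, 17%, 21.4%, 12.3%, 27.6%, 34.8% and 30.9% in these 7 regions, in that order.

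From the highest to the lowest, the Sham order ran InsularC, MDT, CGC, LH, CMA, PLC, BLA, PAG, dorDG, ILC, PVN, NAcC, MS, mPoA, NAcSh, VMH, raphe, venDG, BNST, VTA, LS, Arc, HB, LC and Nts. Each step was divided by the root of the summed squares of the standard errors of its 2 regions. None of the 24 steps between neighbours exceeded 2 by that measure, and the widest, from HB to LC, was 1.84. Neighbours in a sorted order lie close by construction, so these steps do not test the order. From top to bottom the fitted level spanned 6.27-fold in Sham and 3.24-fold in FT. In FT, PAG (0.93), MDT (0.88) and LH (0.71) were called higher than the other regions and Arc (-0.75) and NAcC (-0.76) lower, with 26.9%, 19.9%, 20%, 24.2% and 24.4% of transcripts called there. The Pearson r of the fitted levels between FT and Sham was 0.60 over 25 regions, and between single replicates the Sham profile had an r from 0.34 to 0.77.

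**Figure D4:**
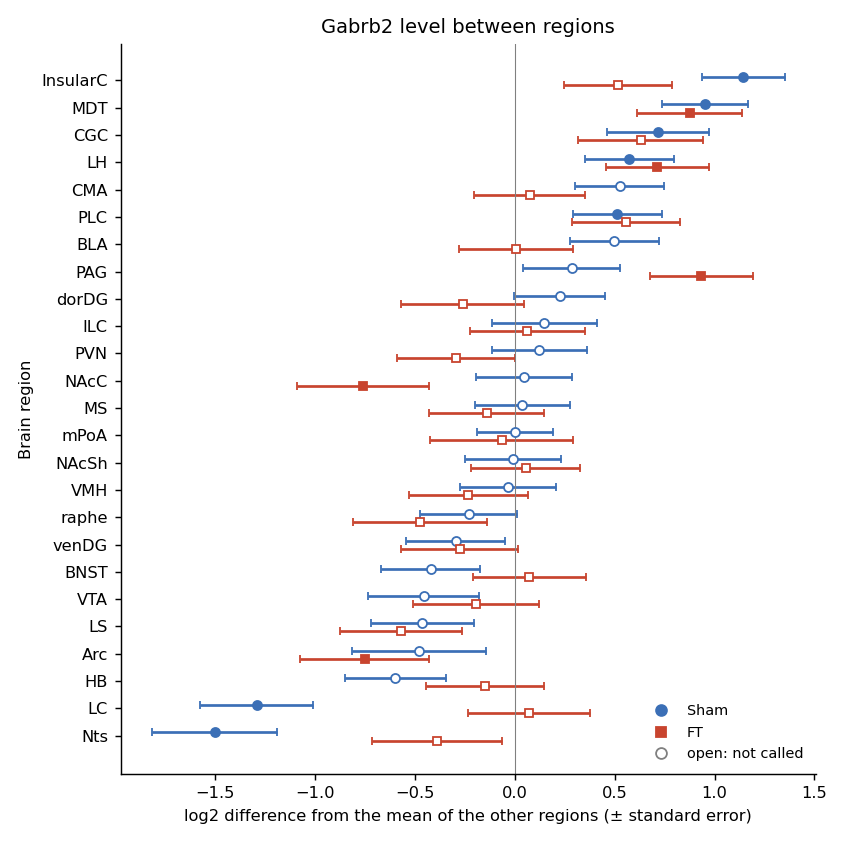
Fitted Gabrb2 level of each region as its log2 difference from the mean of the other regions (± standard error), in Sham (blue circles) and FT (red squares), filled where edgeR called the difference. InsularC stands at 1.14 and Nts at -1.50 in Sham, and the FT points span a narrower range.

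The other genes of GABA transmission were taken from a list of 52 genes. A named transcript was found for 14 of them, Gabrb2 included, and 13 of the 14 were called by edgeR in at least 1 region, the exception being Kctd8. Of 15809 transcripts tested in any region, 27.1% were called in at least 1, but the names exist only for transcripts that the study had called in these samples, so the count is not independent of that choice. Without the replicate block, edgeR called 0 of the 14 in any region, and 12 of them had an unadjusted p under 0.05 in at least 1. The shares of all transcripts under that setting are not given, so neither count is shown to be particular to the list. Most of the calls came from Arc (10 of 13 members tested), mPoA (6 of 13) and the raphe (6 of 14). In those 3 regions 24.6%, 9.59% and 6.6% of all transcripts were called in either direction.

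**Figure D5:**
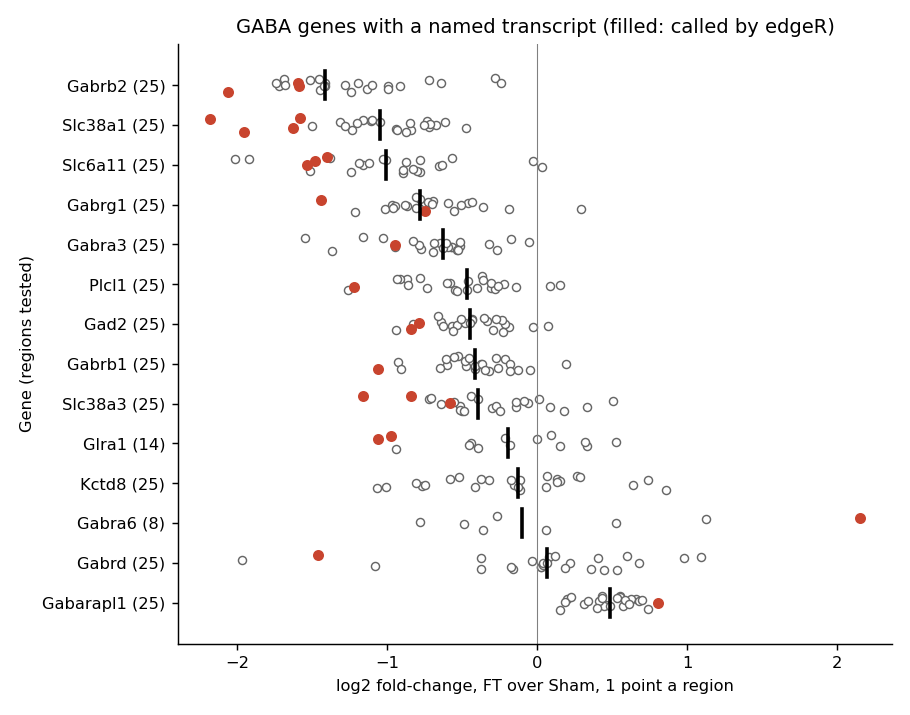
Fitted log2FC, FT over Sham, of the 14 GABA genes with a named transcript, 1 point a region, filled in red where edgeR called it, with a black bar at the median; the number of regions tested is beside each name. Gabrb2 has the lowest median, -1.41, and Gabarapl1 the highest, 0.48.

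Of the other receptor subunits, the alpha-3 gene Gabra3 was negative in 25 of 25 regions, with a median log2FC of -0.63, and was called lower in Arc. The beta-1 gene Gabrb1 was negative in 24 of 25, with a median of -0.41. In Arc it had 52.3 and 61.1 CPM in Sham and 21.9, 29.7, 27.5 and 26.6 CPM in FT, a log2FC of -1.06 (standard error 0.15, edgeR adjusted p = 0.0182). The gamma-1 gene Gabrg1 had a median of -0.78 with 24 of 25 regions negative, and its calls of a lower level were in Arc (log2FC -1.45) and mPoA (-0.75). Gabrd, the delta subunit of tonic receptors, was negative in 8 of 25 regions only, with a median of 0.06. It was called lower in mPoA, from 5.27, 9.20, 9.33 and 10.6 CPM in Sham to 3.81 and 3.42 CPM in FT (log2FC -1.46, edgeR adjusted p = 0.00751).

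Gabra6, the alpha-6 gene next to Gabrb2, is best known from cerebellar granule cells and passed the low-count filter in 8 regions. It was called higher in the raphe, where 3.08% of transcripts were called higher, with 3.13, 7.28, 0.697 and 0.481 CPM in Sham and 7.22, 13.6, 22.6 and 2.14 CPM in FT. Its log2FC there was 2.15 (standard error 0.60, edgeR adjusted p = 0.0896), in the same libraries in which Gabrb2 had -1.42. Over 95 pairs the ratio of Gabra6 had a Pearson r of 0.20 with that of Gabrb2, against 0.71 for Gabra3, 0.68 for Gabrg1 and 0.64 for Gabrb1. The r of Gabra6 includes the pairs of regions where it failed the low-count filter, while the other subunits passed it in 25 regions. Its low r is therefore not directly comparable with theirs. The median r of 1844 named transcripts with Gabrb2 was 0.33. All these r values include the ILC and Nts pairs of replicate 3, whose Sham libraries held under 1000000 counts and 0 Gabrb2 reads. Values without those pairs are not given for these subunits.

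Among genes that supply GABA, Gad2, the enzyme that makes it from glutamate, had a median of -0.45 with 24 of 25 regions negative, and calls of a lower level in Arc and the raphe. Slc38a1, a neuronal transporter of the precursor glutamine, had a median of -1.05 and was negative in all 25 regions. It was called lower in Arc, mPoA, Nts (2.36% of transcripts called lower) and the raphe (3.51%). Its values in mPoA were 49.2, 97.1, 87.0 and 72.4 CPM in Sham and 22.3 and 13.7 CPM in FT, a log2FC of -2.18 (standard error 0.28). Slc6a11, which takes up GABA mainly into astrocytes, had a median of -1.01 and was called lower in Arc, mPoA and the raphe. Slc38a3, the glutamine transporter of astrocytes, was negative in 20 of 25 regions, with calls in the same 3 regions as Slc6a11.

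The remaining members had mixed values. Gabarapl1, of a family that acts in autophagy and receptor traffic, was positive in 25 of 25 regions with a median of 0.48. It was called higher in Arc, where 13.7% of transcripts were called higher, from 331 and 303 CPM in Sham to 586, 949, 458 and 672 CPM in FT. Plcl1, which binds GABA-A receptors and their traffic partners, was called lower in Arc, with a log2FC of -1.22. Glra1, the alpha-1 subunit of the glycine receptor, was tested in 14 regions and called lower in the raphe (log2FC -1.06) and in Nts (-0.98), where the fit holds the Sham library of 4586 counts. Kctd8, an auxiliary subunit of GABA-B receptors, was negative in 15 of 25 regions, and DESeq2 called it lower in NAcSh and PVN.

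In NAcC, Gabrb2 was the only member that edgeR called among 12 tested, and the other 11 had a median log2FC of -0.23, 6 of them negative. The nearest in NAcC were Gabra3 (log2FC -1.55, edgeR adjusted p = 0.167), Slc6a11 (-1.38, adjusted p = 0.196) and Gabrg1 (-1.22, adjusted p = 0.15). DESeq2 called these 3 lower in NAcC as well, with an adjusted p of 0.0211, 0.0676 and 0.0128. The median log2FC of all transcripts lay between -0.05 and 0.05 in every region.

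The named transcripts with the most similar Sham profile over 25 regions were Enpp5 (Pearson r 0.88), Clvs1 (0.88), Rap1gds1 (0.88), a regulator of small GTPases, Rsl24d1 (0.88), a ribosome biogenesis factor, and Znhit3 (0.86), against a median r of 0.44 over 1844. The region means behind these Sham r values include the ILC and Nts libraries of replicate 3, with 0 Gabrb2 reads. Values without those libraries are not given, so the Sham list may depend on them. For the paired ratio over 95 pairs, r was highest for Foxj3 (0.81), a forkhead transcription factor, Mbnl1 (0.80), a splicing regulator, Ptprj (0.80), a receptor tyrosine phosphatase, Samd8 (0.79) and Frmpd4 (0.79), a postsynaptic scaffold. These 5 were lower in FT in 71 to 81 of 95 pairs. Without the 2 pairs that hold a library under 1000000 counts, their r was between 0.61 and 0.69, and they ranked 13, 26, 9, 36 and 5 of 1844, so other transcripts were then among the highest 5. The lowest r belonged to Tk2 (-0.70), a mitochondrial thymidine kinase, Ubac1 (-0.62), Fdx1l (-0.58), a mitochondrial ferredoxin, Eid1 (-0.56) and RGD1307752 (-0.54), which were higher in FT in most pairs. Without the same 2 pairs these had an r of -0.56, -0.45, -0.66, -0.58 and -0.60 and ranks of 1780, 1644, 1840, 1804 and 1813, so other transcripts were then lower. The profiles share libraries and pools, and the correlations are descriptions.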

How the data were processed

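RNA-seq libraries were made by the authors from pooled tissue punches with a stranded total RNA kit and sequenced as 76 bp read pairs. Per the submitters' processing notes, reads were checked with FastQC, aligned to rn5 with STAR and counted with HTSeq. The deposited values are raw counts per Ensembl transcript. Versions and the strand setting are not given in the sources used here. Rows for reads without a feature, ambiguous or unaligned reads were left out of library sizes. Their shares are given by replicate where used, as a percentage of the sum of all rows of a library, those left out included. The no-feature rows had a median share of 40.3% and the ambiguous rows one of 5.52%. Overlapping transcripts of one gene can share or lose reads by this counting. Some libraries are labelled as having corrupted raw data and their count files were used. dorCA1 and venCA1 were not analysed here.

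Names came from the identifier and name columns of the study's list (1989 transcripts, 1845 with a gene name). No statistic of the study was used. Each region was fitted alone in edgeR 4.0.16 (R 4.3.3) by glmQLFit and glmQLFTest, with TMM, filterByExpr (minimum count 10, minimum total 15) and the replicate number as a block. DESeq2 1.42.0 with the same block was the alternative. Log2 CPM used a prior count of 2. Pairs were formed by replicate number because the study handled the FT and Sham sample of each number side by side. Deviations from the group means in same-numbered samples had a median r of 0.637, and every pair exceeded 0.1 in 23 of 23 regions with at least 3 pairs. The lowest value was -0.09, in Arc with 2 pairs. No 2 files were identical. On simulated NAcC counts edgeR called 24 of 100 2-fold and 80 of 100 4-fold changes, and 8 unchanged among 12771 transcripts. DESeq2 called 36 of 100 2-fold and 84 of 100 4-fold changes there, and more unchanged ones, 23 among 13120 transcripts. Replicates are separate pools of animals. Named genes were Gabrb2, the GABA list members with a transcript, the 5 transcripts most like it in Sham and the 5 highest and 5 lowest in paired ratio. The gene, the lists and the tests were chosen with earlier results of these data known. Alternatives were the other tool, the block, normalisation, the filter, each replicate number left out, all 8 CGC samples, libraries under 1000000 counts left out, and an adjusted p of at most 0.05.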

Additional observations from a re-analysis of the deposited data

Results flagged for a closer look

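A sample far from the other 3 of its group was looked for in 46 groups of 4 samples, of which chance flags about 1 in 20, and 2 were found. In MS, the FT sample of replicate 1 had 1.14 CPM of Gabrb2 from 18 reads, and the nearest FT sample had 4.17 CPM. In PVN, the FT sample of replicate 4 had 5.06 CPM from 71 reads, and the nearest had 2.65 CPM. The PVN sample was higher than the other FT samples and still lower than every Sham sample of its region.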

How the results depend on the processing

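The fitted log2FC of Gabrb2 was negative in 25 of 25 regions by DESeq2, without the block, with median-ratio size factors and without the low-count filter, and in 21 of 23 regions without replicate 4 or without replicate 5. Leaving out a replicate number gave medians of -1.49 to -1.15 and 21 to 25 negative regions. The number of regions called moved far more: 3 as reported, 11 by DESeq2, 0 without the replicate block, 18 without the low-count filter, 1 at an adjusted p of at most 0.05, and 0 to 7 with a replicate number left out (7 without replicate 1, 5 without replicate 3, 0 without replicate 4 or 5). Apart from DESeq2 and from Nts without replicate 1, the share of all transcripts called is not given for these alternative region fits. The moves in the number of calls are thus not shown to be particular to Gabrb2 or the GABA list. By edgeR the unadjusted p was under 0.05 in 14 of 23 regions without replicate 4, in 15 without replicate 5 and in 12 of 25 without the block. The fit without replicate 4 or 5 covers 23 regions, since Arc and mPoA then have 1 pair. GABA list members called in at least 1 region numbered 13, against 0 without the replicate block and 0 to 13 with a replicate number left out. With a replicate number left out, the log2FC in LC ran from -1.22 to 0.44 and that in Nts from -1.10 to 0.51: without replicate 4 and 5 it turned to 0.44 and 0.09 in LC and to 0.51 and 0.22 in Nts. The mean over pools ran from -1.34 to -0.77 with a replicate left out. With a prior count of 0.5 it was -0.99 and its exact permutation p rose to 0.25. The difference between regions in Sham was lost without the replicate block (F = 1.29, edgeR adjusted p = 0.455), and that in the response passed under none of the 9 alternatives (F from 0.441 to 1.28). The cause of these changes was not tested. Counts under 10 reads in 22 libraries limit what single samples show.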
